A study of Mus musculus with 2 samples.

Results

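Apoptosis regulators of the Bcl2 family were examined in leukocytes of early melanomas, as 9 members of the 31053 genes listed. They were the pro-survival paralogs Bcl2a1a, Bcl2a1b and Bcl2a1d, the pro-survival genes Mcl1, Bcl2 and Bcl2l1, the BH3-only gene Bcl2l11 and the effectors Bax and Bak1. The paralogs were chosen because of their measured ratio between the libraries in monocyte/macrophage-like cells, and the other 6 genes for their function in the same pathway. The ratios of the paralogs, also outside those cells since they come from the same libraries, are therefore given as a description and support nothing. CD45+ leukocytes had been sorted on day 4 from tumors formed by Braf-mutant melanoma cells lacking COX-1 and COX-2 (Ptgs-/-), implanted into C57BL/6 hosts 8 weeks old. Hosts of the control group were untreated, and hosts of the NK cell-depleted group had received anti-NK1.1 (200 µg) together with anti-asialo GM1 antibody (30 µg) on days 0 and 2. Tumors of a group were pooled into 1 droplet library, with 16000 cells loaded and some parental melanoma cells spiked into both. One label of both libraries names wild-type tumor cells whereas their titles and the design text name the knockout, and no gene measured in sorted leukocytes checks the tumor genotype.

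Transcript molecules were counted by unique molecular identifiers (UMIs). After filtering, 5292 of 6115 control cells and 4506 of 5536 NK cell-depleted cells remained, with a median of 4170 and 4893 UMIs per cell, and 5 kept barcodes occurred in both libraries. Ptprc, which encodes CD45, had a UMI in 91.7% of the control and 92.7% of the depleted cells outside the melanoma-like cluster, and in 7.69% and 7.14% of the melanoma-like cells. Cells were clustered without the 9 genes and named from marker lists, giving 3233 control and 3097 depleted monocyte/macrophage-like cells, 358 and 456 neutrophil-like cells, 280 and 341 type 2 conventional DC-like cells, 61 and 48 migratory DC-like cells and 267 and 204 T-like cells. Genes of type 1 conventional DCs, Xcr1 and Clec9a, were also among the leading genes of the type 2 conventional DC-like cluster. The NK-like cluster held 569 control cells but 20 depleted cells, in which 7 of 10 NK markers were at 0, so no NK-like comparison was made. Another 4 clusters, with 412 control and 162 depleted cells, stayed unnamed. With 1 library in each group no test between conditions was possible. All intervals are 95% intervals, exact Poisson for levels and exact binomial for ratios and shares, and cover counting error only. The effect of the depletion and the difference between the 2 pooled libraries cannot be told apart.

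Proteins of the Bcl2 family decide whether the mitochondrial outer membrane is permeabilised. Pro-survival members (A1, encoded by the Bcl2a1 paralogs, and the products of Mcl1, Bcl2 and Bcl2l1) bind BH3-only proteins and effectors, BH3-only proteins such as BIM (Bcl2l11) oppose them, and activated BAX or BAK1 forms the pore through which cytochrome c leaves. In blood cells these genes are used unequally. Neutrophils are known to depend on MCL1 and to express A1, lymphocytes rely largely on BCL2, and A1 is an inducible, short-lived protein that rises with inflammatory and growth factor signals.

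The paralogs are close copies on mouse chromosome 9 (build GRCm38, GENCODE M21 annotation). Bcl2a1d lies on the minus strand at chr9:88723285-88731914, Bcl2a1a on the plus strand at chr9:88956900-88962419 and Bcl2a1b on the plus strand at chr9:89199209-89207827. Each has 2 exons. Of 516 coding bases, 12 positions were not the same in all 3, and the pairwise coding identity was 97.9% for Bcl2a1a and Bcl2a1b, 98.6% for Bcl2a1a and Bcl2a1d and 98.8% for Bcl2a1b and Bcl2a1d. The first 100 coding bases, the stretch of that length with the most differences, are shown because they hold 7 of those positions, given in capitals:

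Bcl2a1a: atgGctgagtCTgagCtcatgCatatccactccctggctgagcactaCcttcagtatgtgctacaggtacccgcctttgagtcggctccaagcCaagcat

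Bcl2a1b: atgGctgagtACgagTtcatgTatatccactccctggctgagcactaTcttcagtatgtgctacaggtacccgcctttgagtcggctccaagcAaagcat

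Bcl2a1d: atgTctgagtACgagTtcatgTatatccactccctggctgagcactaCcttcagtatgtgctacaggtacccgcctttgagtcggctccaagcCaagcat

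A library that reads transcripts from the 3′ end depends more on the last exon. Its coding part, at chr9:88962172-88962270 in Bcl2a1a, chr9:89207582-89207680 in Bcl2a1b and chr9:88723434-88723532 in Bcl2a1d, holds 1 differing position, again in capitals:

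Bcl2a1a: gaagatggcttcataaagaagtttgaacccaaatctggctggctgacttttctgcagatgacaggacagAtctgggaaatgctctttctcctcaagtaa

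Bcl2a1b: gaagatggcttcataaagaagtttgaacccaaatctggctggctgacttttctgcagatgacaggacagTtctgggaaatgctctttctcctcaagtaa

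Bcl2a1d: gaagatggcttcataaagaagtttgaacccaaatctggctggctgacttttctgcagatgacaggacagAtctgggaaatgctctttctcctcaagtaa

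Of all 50-base windows along the annotated transcript, 31.0% in Bcl2a1a, 42.4% in Bcl2a1b and 20.5% in Bcl2a1d occurred in no other paralog. In the last exon these were 50 of 199 windows, 50 of 197 and 0 of 199, so the assignment of UMIs to single paralogs is uncertain and the sum of the 3 genes, called the Bcl2a1 sum here, was taken as the main quantity. The annotated gene Gm29094 shares 401 of the 817 exonic bases of Bcl2a1b, and reads in those bases may be lost to both; it had 0 control and 1 depleted UMIs in all kept cells. The fourth gene of the family, Bcl2a1c, had 6 and 5 UMIs and was not added to the sum.

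The promoters were compared too. In the RefSeq promoter sequences (GRCm38.p6, 250 bases before to 50 after each annotated start), which were found for all 9 members, the 3 paralogs carry the same pair of motifs side by side. Shown are 100 bases of each, at chr9:88956746-88956845 on the plus strand for Bcl2a1a, chr9:89199055-89199154 on the plus strand for Bcl2a1b and chr9:88731925-88732024 on the minus strand for Bcl2a1d, with the matches in capitals, first TGANTCA, the letters of an AP-1 site, and then GAGGAAGT, the letters of a PU.1-type site:

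Bcl2a1a: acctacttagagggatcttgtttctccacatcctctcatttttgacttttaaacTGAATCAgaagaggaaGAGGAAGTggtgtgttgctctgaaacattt

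Bcl2a1b: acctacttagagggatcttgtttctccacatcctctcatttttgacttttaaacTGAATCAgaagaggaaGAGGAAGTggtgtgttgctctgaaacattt

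Bcl2a1d: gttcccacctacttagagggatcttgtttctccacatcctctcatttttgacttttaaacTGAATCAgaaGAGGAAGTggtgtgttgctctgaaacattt

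Searched on both strands, TGANTCA occurred in 7.81% and GAGGAAGT in 3.20% of 32851 RefSeq promoters of the same length, and the matches shown do not overlap. Bak1 also held GAGGAAGT. The NF-kB motif (GGGRNNYYCC, with R for A or G, Y for C or T and N for any base) was searched on the gene's strand alone. On that strand it was held by 5.89% of promoters, among them that of Bcl2l1 and none of the paralogs. Matches on the other strand were not looked for. An interferon response motif (GAAA and, after any 2 bases, GAAA), searched on both strands, was held by 3.44% of promoters and by none of the 9. These are matches of letters and say nothing about whether a factor was bound.

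The Bcl2a1 sum was highest in migratory DC-like cells. Control levels were 1542 UMIs per 1000000 UMIs of the class (CPM; 1415 to 1676) in migratory DC-like cells, 732 (653 to 818) in neutrophil-like cells, 295 (268 to 323) in type 2 conventional DC-like cells and 232 (225 to 240) in monocyte/macrophage-like cells. No neighbours in that order overlapped. T-like cells had 97.2 CPM (73.8 to 126) and NK-like cells, which existed as a class in the control library alone, 53.1 CPM (41.7 to 66.6). These classes other than the NK-like one kept that order in the depleted library, at 972 CPM (859 to 1095), 329 (285 to 378), 122 (108 to 137), 111 (106 to 116) and 26.7 (14.2 to 45.7), but there the levels of type 2 conventional DC-like and monocyte/macrophage-like cells overlapped. Monocyte/macrophage-like cells, the largest class, held 60.8% of all control UMIs of the sum and 65.1% of the depleted ones. The sum had 3 UMIs in each library in melanoma-like cells, and 4 and 3 in 48 and 36 B-like cells. Left out of this order were eosinophil-like cells, with 1 control UMI and 11 depleted UMIs (230 CPM, 115 to 411, in the depleted library). The unnamed cells, also left out, had 367 and 275 CPM.

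**Figure D1:**
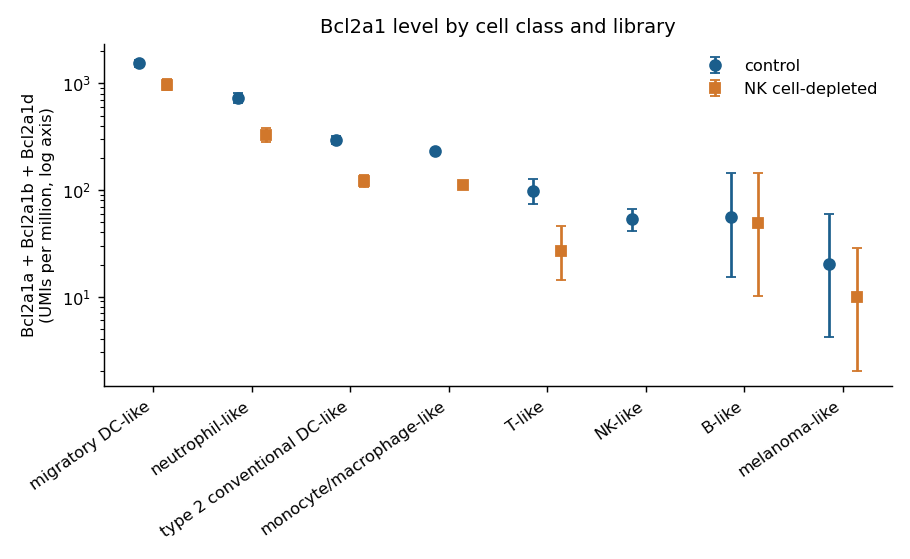
Level of the Bcl2a1 sum (CPM, log axis) by cell class in the control and NK cell-depleted libraries. Eosinophil-like cells, unnamed cells and depleted NK-like cells are not drawn. Points are class UMI sums and bars their 95% Poisson intervals. In each of the 5 classes compared, the control point lies above the depleted point, from 1542 against 972 CPM in migratory DC-like cells to 97.2 against 26.7 CPM in T-like cells.

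In monocyte/macrophage-like cells the sum had 3999 control and 2004 depleted UMIs, a level 2.10-fold higher in the control library (1.99 to 2.21, log2 1.07). It exceeded the ratio of 97.7% of the 11723 genes that had 20 or more UMIs in those cells when both libraries were added. All members passed that minimum, and 3 of 9, the paralogs, were past the fold, meaning at least 1.5-fold different with an interval that excludes 1. Among all genes 5.97% were past it as higher in the control library and 2.88% as lower. Nothing is read from these shares, or from those set beside the members in the other classes below. The paralogs were chosen on this contrast and share reads, so they are not separate results. The member just inside that limit was Bcl2a1a, at 1.86-fold. Nearest outside it were Mcl1, lower in the control library at 0.813-fold, and then Bcl2l1, higher at 1.20-fold.

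The difference was also seen in how many cells held the transcript. A UMI was found in 1548 of 3233 control cells (47.9%) and 888 of 3097 depleted cells (28.7%), and 5 or more in 6.34% and 3.04%. After thinning every cell to 2000 UMIs, which left out 300 control and 227 depleted cells below that depth, the shares were 30.8% and 15.6%. In melanoma-like cells, the class with the lowest level, 3.85% and 1.43% held a UMI before thinning, at median depths of 1679 and 2022 UMIs against 4852 and 5420 in monocyte/macrophage-like cells. The NK marker list summed to 63.1 CPM in control and 19.0 CPM in depleted monocyte/macrophage-like cells, while NK-like cells themselves had 53.1 CPM of the Bcl2a1 sum. Leaving out cells that carried 3 or more markers of another class gave a log2 ratio of 1.09.

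The difference was present within each monocyte/macrophage-like cluster that had enough cells to compare. All 10 clusters with at least 50 cells in both libraries were higher in the control library with an interval that excludes 1, at log2 ratios from 0.34 to 1.64. The ratio was highest in cluster 4 (led by Vcan, Gm9733 and Ly6c2), at 159 CPM against 50.9, 3.13-fold (2.53 to 3.88). It was lowest in cluster 12 (led by Retnla, Il6 and Lyz1), at 259 CPM against 204, a log2 ratio of 0.34 (0.10 to 0.58). Cluster 2 (led by Pf4, Ms4a7 and Itga9) had the highest levels in both libraries, 334 and 232 CPM, a 1.44-fold difference (1.31 to 1.59). An eleventh cluster had 23 UMIs in 60 control cells and 0 in 12 depleted cells. With the depleted count set to 3 UMIs its control level was 1.47-fold higher, a value that leaves out the counting error of the control count.

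The libraries filled those clusters unequally. Clusters 2, 0 (led by Mmp13, Gpnmb and Rhov) and 5 (led by Hes1, Havcr2 and Htra3) held 21.6%, 20.7% and 13.7% of the control cells of the class, whereas clusters 1 (led by Ccl8, Lyve1 and Cbr2), 4 and 8 (led by Ace, Chil3 and Ldlrad3) held 20.7%, 18.5% and 11.8% of the depleted ones. Cluster 8 had the lowest levels of the class, 77.3 and 46.1 CPM. With every cluster given the same weight the log2 ratio was 0.78 in place of 1.07. Of the unnamed clusters, 3 had enough UMIs to compare. The log2 ratio was 0.71 (0.39 to 1.06) in cluster 6.0, led by Spint1, Mgl2 and Cdh1, and 0.34 (0.10 to 0.59) in cluster 6.2, led by Pxdc1, Dcstamp and AA467197. In cluster 16, led by Gm5483, Hcar2 and Cxcl3, it was 0.40 and the interval included 0.

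**Figure D2:**
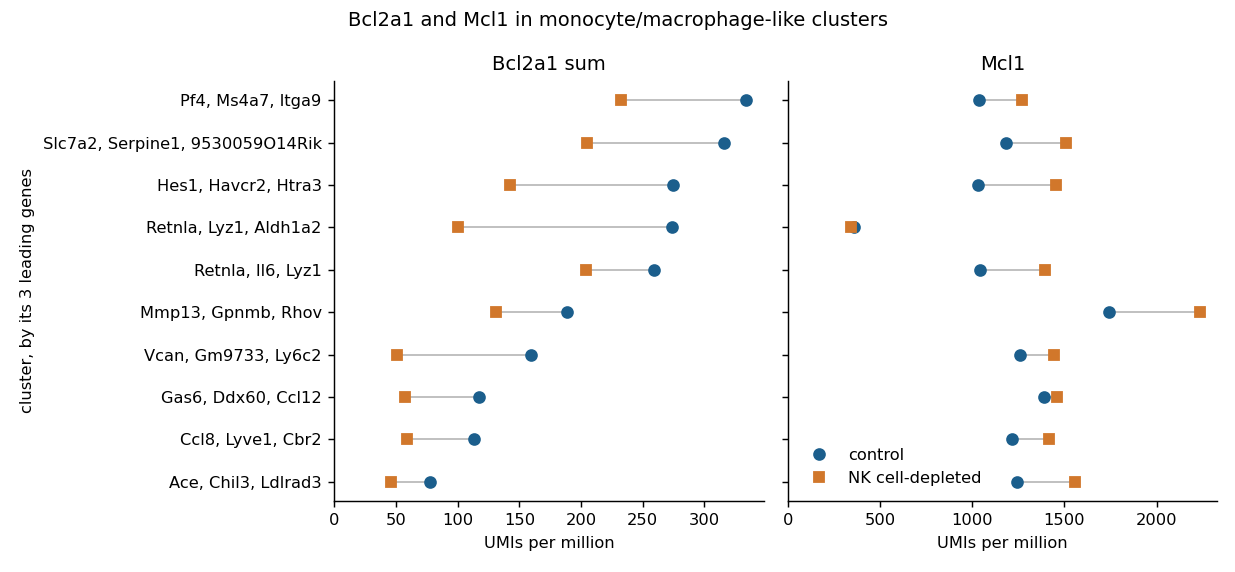
Levels (CPM) of the Bcl2a1 sum (left) and of Mcl1 (right) in 10 clusters of monocyte/macrophage-like cells, each named by its 3 leading genes, with circles for the control and squares for the NK cell-depleted library joined by a line. The control circle lies right of the square in 10 of 10 clusters for the Bcl2a1 sum and left of it in 9 of 10 for Mcl1.

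In neutrophil-like cells the Bcl2a1 sum had 310 UMIs in 358 control cells and 199 in 456 depleted cells, 2.23-fold (1.86 to 2.67). A UMI was found in 37.7% and 24.6% of those cells, whose median depth was 1158 and 1299 UMIs. Of 8 members with enough UMIs, 4 (the paralogs and Bcl2l1) were past the fold and higher in the control library, against 4.54% of 4579 genes, and 0 were lower, against 3.97%. The NK marker list summed to 177 CPM in control and 3.30 CPM in depleted neutrophil-like cells, and its part in the result was not tested.

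In type 2 conventional DC-like cells the sum had 459 and 269 UMIs, 2.42-fold higher in the control library (2.08 to 2.82). A UMI was found in 50.7% and 30.5% of cells. Several marker lists moved with it. In control against depleted cells the plasmacytoid DC list summed to 1247 and 639 CPM (7 and 7 of 7 markers had UMIs) and the B list to 521 and 225 CPM (9 and 3 of 9). The neutrophil list summed to 577 and 382 CPM (10 and 9 of 10) and the migratory DC list to 436 and 323 CPM (9 and 8 of 9), and these are the classes with the highest Bcl2a1 levels. Without cells carrying 3 or more markers of another class the log2 ratio was 1.17 in place of 1.27. The part of these lists in the result was not tested further. Of 9 members 3, the paralogs, were past the fold as higher, against 4.38% of 8864 genes, and 0 as lower, against 4.20%.

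Migratory DC-like cells, few but rich in the transcript, had 549 UMIs in 61 control cells and 270 in 48 depleted cells, 1.59-fold (1.37 to 1.84). At least 5 UMIs were found in 37 and 20 cells, and 31.7% and 40.7% of the UMIs lay in the 5 richest cells. Of 8 members with enough UMIs, Bcl2a1b, Bcl2a1d and Bcl2l11 (32 and 12 UMIs) were past the fold as higher, against 4.61% of 3929 genes, and 0 as lower, against 7.69%.

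T-like cells had few molecules, 58 UMIs in 267 control cells and 13 in 204 depleted cells, 3.63-fold (1.97 to 7.23). In the depleted library 61.5% of them lay in the 5 richest cells. Of 7 members with enough UMIs, 1 (Bcl2a1b) was past the fold as higher, against 6.16% of 6316 genes, and 2 (Mcl1 and Bcl2) as lower, against 4.67%. Markers of other cells differed between the libraries in both directions. The monocyte/macrophage list summed to 1464 CPM in control and 860 CPM in depleted T-like cells (23 and 19 of its 27 markers had UMIs). The NK list summed to 667 and 65.8 CPM (10 and 4 of 10 markers). The migratory DC list, at 488 and 815 CPM, and the neutrophil list, at 147 and 191 CPM, were lower in the control library. The part of these lists in the result was not tested. Removing cells with 3 or more markers of another class gave a log2 ratio of 2.18 in place of 1.82, and over 13 alternatives the ratio ran from 0.68, with cells thinned to 500 UMIs, to 2.71, without the 5 cells of each library richest in Bcl2a1 UMIs.

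Single paralogs, whose counts are uncertain as described, were each higher in the control library in monocyte/macrophage-like cells. Bcl2a1b had 2926 and 1415 UMIs, 2.17-fold (2.04 to 2.32), Bcl2a1d had 541 and 288, 1.97-fold (1.71 to 2.29), and Bcl2a1a had 532 and 301, 1.86-fold (1.61 to 2.15). The paralogs did not take fixed shares across cell classes. In the control library Bcl2a1b made up 73.2% of the sum in monocyte/macrophage-like cells but 49.5% (44.8 to 54.1) in type 2 conventional DC-like cells, where Bcl2a1d reached 31.2% (26.9 to 35.6) against 13.5% (12.5 to 14.6). Bcl2a1a was 22.6% (18.0 to 27.6) in neutrophil-like cells against 13.3% (12.3 to 14.4) in monocyte/macrophage-like cells. In lymphoid cells it was nearly lacking, with 2 of 74 UMIs in control NK-like cells (2.70%, 0.329 to 9.42) and 0 of 58 in control T-like cells, where a count of 0 still permits 5.17%. In depleted cells Bcl2a1d was likewise 27.5% of the sum in type 2 conventional DC-like and 14.4% in monocyte/macrophage-like cells, and Bcl2a1a 32.2% (25.7 to 39.1) in neutrophil-like cells.

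**Figure D3:**
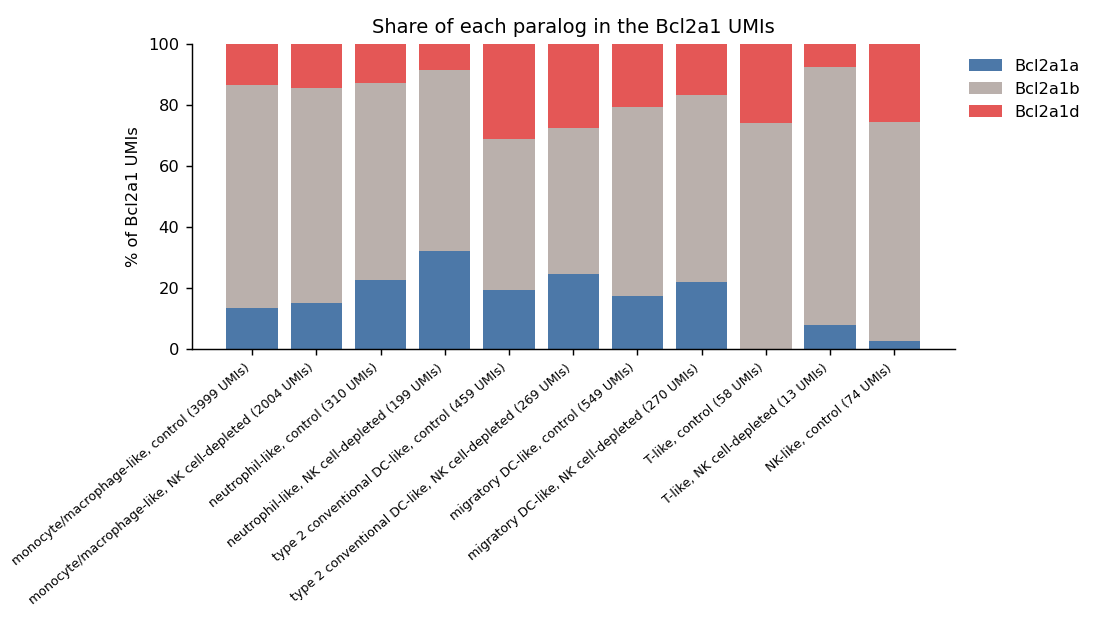
Share of the Bcl2a1 sum (percent of its UMIs) taken by Bcl2a1a, Bcl2a1b and Bcl2a1d, as stacked bars that add to 100%. Bars are given for the 5 classes compared in each library and for control NK-like cells. Bcl2a1b is the largest share in every bar, and the Bcl2a1d share is larger in type 2 conventional DC-like cells (31.2% in the control library) than in monocyte/macrophage-like cells (13.5%).

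Mcl1, a pro-survival gene with a short-lived product, had the most UMIs of the members over all cells. It was highest in neutrophil-like cells, at 3488 CPM (3313 to 3671) in the control and 3770 (3617 to 3928) in the depleted library, and eosinophil-like cells had 3460 (2382 to 4859) and 2903 (2441 to 3428) from 12 and 72 cells. T-like cells were the lowest of the classes compared, at 395 and 594 CPM. In monocyte/macrophage-like cells Mcl1 had 20636 control and 26685 depleted UMIs, 1199 against 1475 CPM, and was lower in the control library at 0.813-fold (0.798 to 0.828, log2 -0.30), with 15.8% of genes having a lower ratio. It was lower in 9 of 10 clusters, 8 of them with an interval that excludes 1. The ratio was 0.763 (0.716 to 0.814) in type 2 conventional DC-like cells, 0.925 (0.866 to 0.988) in neutrophil-like cells and 1.09 (0.912 to 1.30) in migratory DC-like cells. It was past the fold in T-like cells alone among the 5 classes compared, at 0.665 (0.558 to 0.793). So the direction of Mcl1 was opposite to that of the Bcl2a1 sum in 4 of the 5 classes, and in the migratory DC-like cells its interval included 1.

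Bcl2, the founding pro-survival gene of the family, had its highest levels in lymphoid cells. Control NK-like cells had 460 CPM (425 to 497) and held 641 of the 1499 control UMIs (42.8%), and control T-like cells had 233 CPM. Its 1.55-fold higher level over all control cells (60.4 against 39.1 CPM) was over a mix of classes that differed, with 569 and 20 NK-like cells. Bcl2 had 470 and 479 UMIs in monocyte/macrophage-like cells, 27.3 and 26.5 CPM, a ratio of 1.03 (0.906 to 1.17). In T-like cells it had 139 control and 199 depleted UMIs and was lower in the control library, 233 (196 to 275) against 409 (354 to 470) CPM, 0.569-fold (0.455 to 0.710). When cells above the UMI and gene limits were let in, the log2 ratio turned to 0.089, and the T-like class grew to 355 control cells but fell to 124 depleted cells. Neutrophil-like cells had 2 Bcl2 UMIs in each library and migratory DC-like cells 1 and 0, under the limit of 3 UMIs, although these classes had the highest Bcl2a1 levels.

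Bcl2l1, which encodes BCL-XL, had 1269 and 1111 UMIs in monocyte/macrophage-like cells, 73.7 against 61.4 CPM, 1.20-fold (1.11 to 1.30). Within clusters it was higher in 3 and lower in 6 of the 9 clusters with enough UMIs, and the ratio over clusters of the same weight was lower in the control library (log2 -0.26), so the direction changed with the weight given to clusters. In neutrophil-like cells it had 45 and 37 UMIs, 106 against 61.1 CPM, 1.74-fold (1.10 to 2.76). It was low in type 2 conventional DC-like cells, at 13.5 and 11.8 CPM, and highest in melanoma-like cells, at 243 (36 UMIs) and 334 CPM (102 UMIs).

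Bcl2l11, which encodes the BH3-only protein BIM, was highest in control NK-like cells among the classes with at least 20 UMIs, at 462 CPM (427 to 500), which held 16.2% of its control UMIs. In monocyte/macrophage-like cells it had 2631 and 2908 UMIs, 153 against 161 CPM, a ratio of 0.951 whose interval included 1. The ratio was below 1 in 9 of 9 clusters with enough UMIs, 3 of them with an interval that excludes 1. Neutrophil-like cells had 257 and 225 CPM, 1.15-fold (0.882 to 1.48), and migratory DC-like cells 32 and 12 UMIs, 2.08-fold (1.04 to 4.44). The 12 depleted UMIs of the migratory DC-like cells lay in 6 cells, 91.7% of them in the 5 richest. Over 12 alternatives that log2 ratio ran from 0.68 to 3.18.

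The effectors Bax and Bak1 were past the fold in none of the 5 classes compared. Bax had 2374 and 2426 UMIs in the monocyte/macrophage-like class, 138 and 134 CPM, a ratio of 1.03 (0.972 to 1.09). It was higher in the control library in 9 of 10 clusters, in cluster 0 with an interval that excludes 1 (128 against 98.1 CPM, 1.30-fold, 1.06 to 1.60). Cluster 10, led by Gas6, Ddx60 and Ccl12, went the other way at 116 against 170 CPM, 0.679-fold (0.484 to 0.945). Bak1 had 1375 and 1714 UMIs in that class, 79.9 against 94.8 CPM, 0.843-fold (0.785 to 0.906). None of the 4 other classes compared gave either effector an interval that excludes 1, at 13 to 239 UMIs per library. In melanoma-like cells 6 markers of the melanoma list, among them Mlana, Pmel and Sox10, were at 0 in both libraries. Bax had 34 and 133 UMIs in those cells, 0.528-fold (0.351 to 0.774). The median log2 ratio of 3026 genes in this class was -0.33. The authors had added parental melanoma cells to gauge how samples vary, and their share of this class was not tested. The Bax ratio is therefore not read as a change in tumor cells of the hosts.

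**Figure D4:**
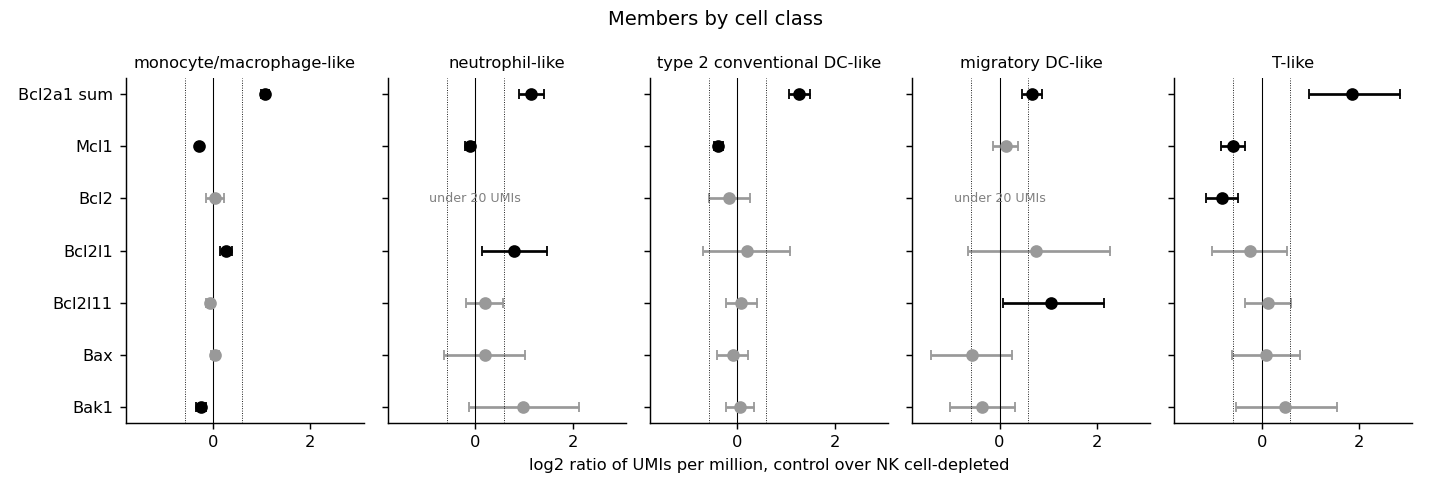
Log2 ratio of control over NK cell-depleted level for the Bcl2a1 sum and the 6 other members in 5 cell classes, with 95% counting intervals (black where 0 is excluded, grey where not) and dotted 1.5-fold limits. The Bcl2a1 sum lies right of 0 in all 5 panels, at 1.07 in monocyte/macrophage-like cells, where Mcl1 (-0.30) lies left of 0.

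Bcl2a1 levels ran closely with none of the 6 other members across cell groups. Over 37 combinations of cluster and library with at least 50 cells, the Pearson correlation of log2(CPM + 10) with the Bcl2a1 sum was 0.41 for Mcl1, 0.31 for Bcl2l11, 0.11 for Bak1, -0.09 for Bcl2l1, -0.38 for Bax and -0.43 for Bcl2. Among 5867 other genes with at least 1000 UMIs the 5 most alike were Haus8, a subunit of the augmin complex of the spindle, at 0.78, Csf2rb2 at 0.77, Adam8, a membrane metalloprotease of leukocytes, at 0.76, Csf2rb at 0.75 and Basp1 at 0.73. Csf2rb encodes the beta chain shared by the receptors for GM-CSF, IL-3 and IL-5, and Csf2rb2 is its close paralog, so their UMIs may not be fully separate. The points share libraries and clusters, so these values are a description. Between the libraries Csf2rb2 was 1.43-fold (1.27 to 1.62) and Csf2rb 1.25-fold (1.19 to 1.30) higher in control monocyte/macrophage-like cells, and Haus8 had a ratio of 1.06 (0.937 to 1.19). The genomic neighbour of Bcl2a1b, Mthfs, which starts 2848 bases beyond its end, was looked at after its correlation was seen; its ratio was 1.36 (1.18 to 1.55).

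Beyond the members, 55 genes of apoptosis and of signals linked to A1 were followed as a list. In monocyte/macrophage-like cells 48 had enough UMIs, of which 1 was past the fold as higher and 1 as lower in the control library, against 5.97% and 2.88% of all genes, and their median log2 ratio was -0.14 beside -0.01 for all 11723 genes. The gene past the fold as higher was Birc5, which encodes the mitotic protein survivin, with 104 and 60 UMIs, 6.04 against 3.32 CPM, 1.82-fold (1.31 to 2.55). The one past it as lower was Tnfaip3, an NF-kB feedback gene, with 3482 and 5861 UMIs, 202 against 324 CPM, 0.624-fold (0.599 to 0.651). Of the 12 NF-kB subunits and feedback genes, 10 had an interval below 1 and 0 above it, against 24.9% and 19.3% of all 11723 genes, and 1 was past the fold. An interval excludes 1 more easily where UMIs are many, and these shares were not matched for UMI count. The median log2 ratio of the 12 genes was -0.38, thus opposite in direction to the Bcl2a1 sum. The median was -0.14 for 8 BH3-only genes and -0.13 for 8 apoptosome and caspase genes, of which 0 were past the fold.

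**Figure D5:**
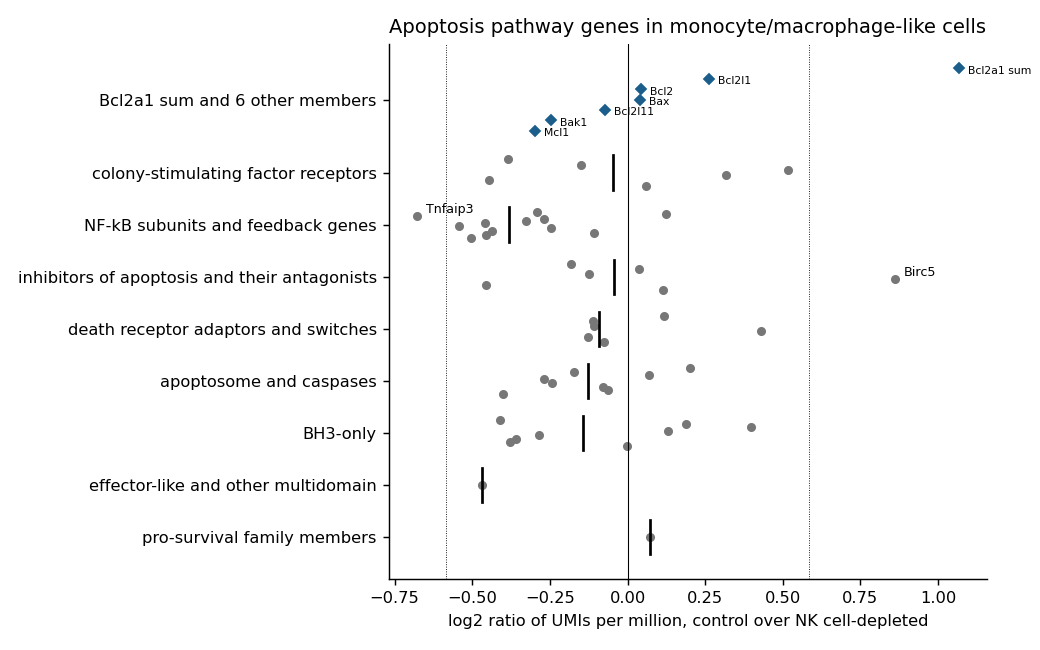
Log2 ratio of control over NK cell-depleted level in monocyte/macrophage-like cells for the Bcl2a1 sum and 6 other members (diamonds) and for 48 genes of the apoptosis and signalling list (circles) by group, with bars at group medians and dotted 1.5-fold limits. The NF-kB group lies left of 0 but for 1 gene, with a median of -0.38, and of the diamonds only the Bcl2a1 sum is past a limit.

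In other classes fewer of the list could be compared. Of 31 genes with enough UMIs in neutrophil-like cells 0 were past the fold, against 4.54% higher and 3.97% lower among all genes, with a median log2 ratio of 0.05. In type 2 conventional DC-like cells 1 of 46 was past it as higher and 5 as lower, against 4.38% and 4.20% of all genes, and these are named after their values were seen. They were Csf2rb2 as higher at 1.73-fold, and Nfkbia (0.553), Tnfaip3 (0.590), Nfkbiz (0.640), Csf1r (0.657) and Diablo as lower. Migratory DC-like cells had 2 of 29 higher and 4 lower, against 4.61% and 7.69% of all genes. T-like cells had 1 of 30 higher (Pmaip1, 47 and 20 UMIs) and 1 lower (Icam1, 36 and 53 UMIs), against 6.16% and 4.67% and also named after their values were seen.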

How the data were processed

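The authors aligned and counted droplet 3′ reads (bcl2fastq and Cell Ranger with mm10 in the submitters' processing notes; the matrix headers give software version 3.0.2) and deposited a filtered matrix of UMI counts, not normalized, for each library. Kept were cells with 500 to 15000 UMIs and 200 to 4000 genes whose mitochondrial share was 10% or less, leaving 24810009 control and 23245982 depleted UMIs. Log2(CPM + 1) values of 2000 variable genes, without the members and the pathway list, gave 15 components, 20 nearest neighbours and Leiden clusters (leidenalg 0.10.2, resolution 1, unnamed ones once more at 0.5). Clusters were named from 15 marker lists; the naming limits, the second round and a last check that left 4 clusters unnamed were set after clusters were seen. Scrublet called 3 cells, so doublet calling did not work; 1161 cells held 3 or more markers of another class.

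UMIs were summed by class and library and divided by the class total (CPM). Ratios have exact conditional binomial intervals, and log2 ratios add 0.5 UMI to each sum. Genes needed 20 UMIs over both libraries, and a count of 0 was bounded at 3 UMIs. The steps were tested on simulated counts. Members and lists were chosen with earlier results of these data known; named genes were the members, list genes past the fold in monocyte/macrophage-like cells, the 5 genes most like the Bcl2a1 sum and the leading 3 genes of a cluster. Genes named in the text outside that rule were chosen after their values were seen.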

Additional observations from a re-analysis of the deposited data

Results flagged for a closer look

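The ratio of Bax between the libraries went opposite ways in 2 monocyte/macrophage-like clusters, each with a counting interval that excludes 0. The log2 ratio of control over NK cell-depleted was 0.38 in cluster 0 (297 and 138 UMIs) and -0.55 in cluster 10 (59 and 101 UMIs). The difference between these clusters was not tested, since each has 1 library per group. Groups of 1 library allow no search for a sample that stands apart.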

How the results depend on the processing

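The log2 ratio of the Bcl2a1 sum in monocyte/macrophage-like cells, 1.07, kept its direction under 19 alternatives. It moved by more than its counting interval to 0.78 with every cluster given the same weight, to 0.94 without Bcl2a1b in the sum and to 1.38 with cells thinned to 500 UMIs, a setting chosen after seeing the data. In neutrophil-like cells it was between 0.95 and 1.34 under 17 alternatives and within its interval, 0.89 to 1.42, in each. Of 414 further values, 380 stayed within their interval and 31 moved beyond it. Some of these 31 changed direction where the main interval included 0, such as Bcl2l1 in T-like cells, at a log2 ratio of -0.25 and at most 1.81. The remaining 3, with main intervals that excluded 0, reversed. Bcl2l1 in monocyte/macrophage-like cells went to -0.26 with clusters of the same weight, Bak1 there to 0.21 after subtracting the level of melanoma-like cells, and Bcl2 in T-like cells to 0.089 when cells above the UMI and gene limits were let in. The causes were not tested. At resolution 0.5 T-like and NK-like cells were 1 cluster and gave no T-like value. Cluster weighting for classes of 1 cluster, and thinning where too few cells were deep enough, gave no value either. No paired analysis was possible because each group has 1 library. Depth left 2 members under 20 UMIs in T-like cells and 1 in each of neutrophil-like and migratory DC-like cells.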

Other observations

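Cells above the upper limits on UMIs or genes, left out of all comparisons, numbered 212 (control) and 353 (NK cell-depleted). Their Bcl2a1 level was 117 CPM (109 to 126, 708 UMIs) and 46.6 CPM (42.4 to 51.1, 457 UMIs), a ratio of 2.52 (2.24 to 2.84). These values are for all such cells together, not by cell class. The part of a different mix of classes, spiked melanoma cells included, was not tested.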
